A study of Homo sapiens with 12 samples.

Results

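The 10 genes described here, GAS5, SNHG1, SNHG5, SNHG6, SNHG7, SNHG8, SNHG12, SNHG16, ZFAS1 and EPB41L4A-AS1, are noncoding hosts of small nucleolar RNAs (snoRNAs). They were listed by symbol, with earlier results of these data known, and all 10 were found once each among the 60605 genes of the deposited table. Box C/D snoRNAs guide ribose methylation of ribosomal RNA, and box H/ACA snoRNAs guide its pseudouridylation. Most human snoRNAs are cut from the introns of host genes, which can be protein-coding or noncoding. Many hosts start with a 5′ terminal oligopyrimidine (TOP) tract, the same kind of start that places the mRNAs of ribosomal proteins and elongation factors under translational control by mTOR and LARP1. The spliced RNA of a noncoding host encodes no protein of known role in most cases. When ribosomes reach this RNA, it is destroyed by nonsense-mediated decay, so its level is known to depend on translation as well as on transcription.

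RNA was sequenced from SBC5, an established line of human small cell lung cancer with the genotype given as wild type, 3 days after treatment. The 4 groups of 3 libraries each were vehicle (DMSO with 0 Gy), olaparib (the PARP inhibitor, 1 µM, with 0 Gy), radiation (DMSO with 4 Gy of gamma rays) and combination (1 µM olaparib followed by 4 Gy); the drug or DMSO was given first and all cells were wild-type SBC5. The labels do not say whether the libraries of a group came from separate cultures, so p-values measure only the spread between these libraries. In bulk RNA, fewer cells that hold a transcript and less transcript per cell cannot be told apart.

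Libraries olaparib 2, olaparib 3 and radiation 3 carried a high background and were set apart. The summed level of the olfactory receptor genes, which are silent in most tissues, was 914.5 to 2079 counts per 1e+06 counts (CPM) in those 3 libraries and 354 to 500.9 CPM in the other 9. The values below come from these 9 libraries (3 vehicle, 1 olaparib, 2 radiation, 3 combination) unless all 12 are named. Total counts ran from 14300459 to 38804959 over the 12 libraries, and the combination libraries, at 19441478 to 20566024, were the shallowest of the 9. MT-RNR2, the mitochondrial large ribosomal RNA, took 23.4% to 32.2% of the counts. Of the markers of small cell lung cancer, YAP1 was at 84.0 to 123.5 CPM over the 9 libraries and fell in the combination (log2 change against vehicle -0.41 ± 0.0783 SE, edgeR adjusted p = 0.000147), and SYP was at 16.4 to 27.3 CPM, while the neuroendocrine factor INSM1 was at 0 in 8 of the 9 libraries. The summed level of the 8 small cell lung cancer markers, most of it YAP1, did not overlap between vehicle and irradiated libraries, at 141.2 to 152.7 CPM over the vehicle libraries, 133.1 CPM in olaparib 1, 114.2 to 122.7 CPM over the radiation libraries and 102.2 to 117.1 CPM over the combination libraries. It thus moved with the groups in which hosts changed, and its part in those changes was not tested. The summed level of 4 leukocyte markers spanned 80.2 to 97.9 CPM over the vehicle libraries, 81.9 to 91.5 CPM over the radiation libraries and 80.4 to 100.7 CPM over the combination libraries, nearly all of it CD68, and CD3E was at 0 in 7 of the 9.

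The starts of the host RNAs were compared with the label of the group. A TOP-like start was taken as a C at the first base followed directly by at least 4 bases that are each C or T, on the transcribed strand only. In GENCODE 29, 8 of the 10 hosts had at least 1 annotated transcript with such a start, and the 2 without one were SNHG7 and EPB41L4A-AS1. Over all 10 hosts, 23 of 130 annotated transcripts started so, against 2.41% of all 206694 transcripts of the annotation. Hosts have many annotated transcripts: among the 15013 genes with at least 4 transcripts, 19.1% had at least 1 such start. The first 25 bases of the transcript with the longest run are shown for 7 hosts, to let the start be read beside the values. This transcript was picked by its run and need not hold the main start of the gene. The capitals mark the run of pyrimidines. Coordinates are GRCh38 from GENCODE 29 and are not from the deposited table, whose build the sources used here do not name.
GAS5, chr1:173867965-173867989, minus strand: CTTTTCgaggtaggagtcgactcct
SNHG1, chr11:62855455-62855479, minus strand: CTCCTgtctgcaggatttacgcgca
SNHG5, chr6:85678709-85678733, minus strand: CTTTTacgtcggccttcgcgagcgt
SNHG8, chr4:118278758-118278782, plus strand: CTTTCacattcgggaagcgtcggga
SNHG12, chr1:28581849-28581873, minus strand: CCTTTCTCCCCgccgcattcccggt
SNHG16, chr17:76557769-76557793, plus strand: CTTTTCgaggtcggccgcgtggctg
ZFAS1, chr20:49290888-49290912, plus strand: CCTTCCCaggtattggcaacaccag

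RefSeq (GRCh38.p14) names 1 start per gene, and its table held 9 of the 10 hosts, all but SNHG6. At that single start, 3 of 9 hosts (SNHG5, SNHG12 and ZFAS1) had the TOP-like letters, against 4.04% of all 27305 promoters, 67.7% of the 62 ribosomal protein genes matched and 4 of 13 other noncoding snoRNA hosts. The GENCODE starts shown above for GAS5, SNHG1 and ZFAS1 lie downstream of their RefSeq starts. The 50 bases around those are chr1:173869016-173869065, chr11:62855856-62855905 and chr20:49278622-49278671. At its RefSeq start ZFAS1 had CTTTC, another run than the one shown above. SNHG1 had the TOP-like letters in 1 of 25 annotated transcripts. SNHG7 and EPB41L4A-AS1 are shown by the 50 bases around their RefSeq start, 20 before it and 30 from it onward. The longest C-led run of pyrimidines near the start is in capitals.
SNHG7, chr9:136728155-136728204, minus strand: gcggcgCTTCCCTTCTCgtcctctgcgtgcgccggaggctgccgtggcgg
EPB41L4A-AS1, chr5:112160506-112160555, plus strand: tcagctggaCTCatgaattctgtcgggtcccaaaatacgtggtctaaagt

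In SNHG7 the run began 14 bases before the annotated start, and in EPB41L4A-AS1 no run longer than 3 bases lay there. A match of letters is a description of these windows and says nothing of which start SBC5 cells used, because the deposited counts are summed per gene.

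Radiation alone, compared with vehicle, asks how the hosts respond to 4 Gy without the inhibitor. SNHG6, GAS5, SNHG1 and SNHG5 rose, by 1.24- to 1.46-fold, and no host fell. In all, 8 hosts were higher in both radiation libraries than in each of the 3 vehicle libraries, SNHG8 was lower in both, and SNHG16 overlapped. The 4 hosts called higher out of 10 stand beside 0.42% of the 30967 genes tested, or 1.07% of the 11050 genes with a mean of at least 5 CPM, that were called higher in this comparison by edgeR's quasi-likelihood test with Benjamini-Hochberg adjustment. The 8 hosts that were higher without overlap stand beside 11.7% of all genes tested. No such share was taken for the lower side, where SNHG8 lay. The median log2 change of the 10 hosts was 0.38, and that of all genes tested was -0.03.

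SNHG6, the host of the box C/D snoRNA SNORD87, showed the largest change among those called. Its level was 61.4, 52.6 and 64.8 CPM in vehicle 1 to 3, 90.9 and 82.7 CPM in radiation 1 and 2, 66.9, 63.7 and 71.9 CPM in combination 1 to 3, and 64.4 CPM in olaparib 1. Both radiation libraries stood above all others, and the vehicle and combination libraries overlapped. The log2 change from vehicle to radiation was 0.54 ± 0.0969 (SE; edgeR adjusted p = 0.000176).

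GAS5, named for its accumulation in growth-arrested cells and the host of a series of box C/D snoRNAs, had 162, 152 and 158 CPM in the vehicle libraries and 224 and 195 CPM in the radiation libraries. The combination libraries had 171, 165 and 167 CPM and olaparib 1 had 164 CPM. Radiation was again above every other library, while the lowest combination library lay only just above the highest vehicle library. The change from vehicle to radiation was 0.41 ± 0.0801 on the log2 scale (SE; edgeR adjusted p = 0.000736). SNHG1, which holds SNORD22 and SNORD25 to SNORD31 and was the original example of a host whose spliced RNA is short-lived, also had both radiation libraries above all others. It was at 91.5, 87.6 and 89.6 CPM in vehicle, 119 and 117 CPM in radiation, 85.2, 82.6 and 99.5 CPM in the combination and 95.6 CPM in olaparib 1. Its change from vehicle to radiation was 0.40 ± 0.0888 (SE; edgeR adjusted p = 0.00542), and its combination libraries lay on both sides of the vehicle values.

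SNHG5, the host of SNORD50A and SNORD50B, was at 116, 112 and 109 CPM in vehicle and 144 and 136 CPM in radiation. It was at 136, 126 and 136 CPM in the combination and at 120 CPM in olaparib 1. All 5 irradiated libraries were above vehicle, and those with olaparib overlapped those without it. The change from vehicle to radiation was 0.31 ± 0.0835 (SE; edgeR adjusted p = 0.0358).

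**Figure D1:**
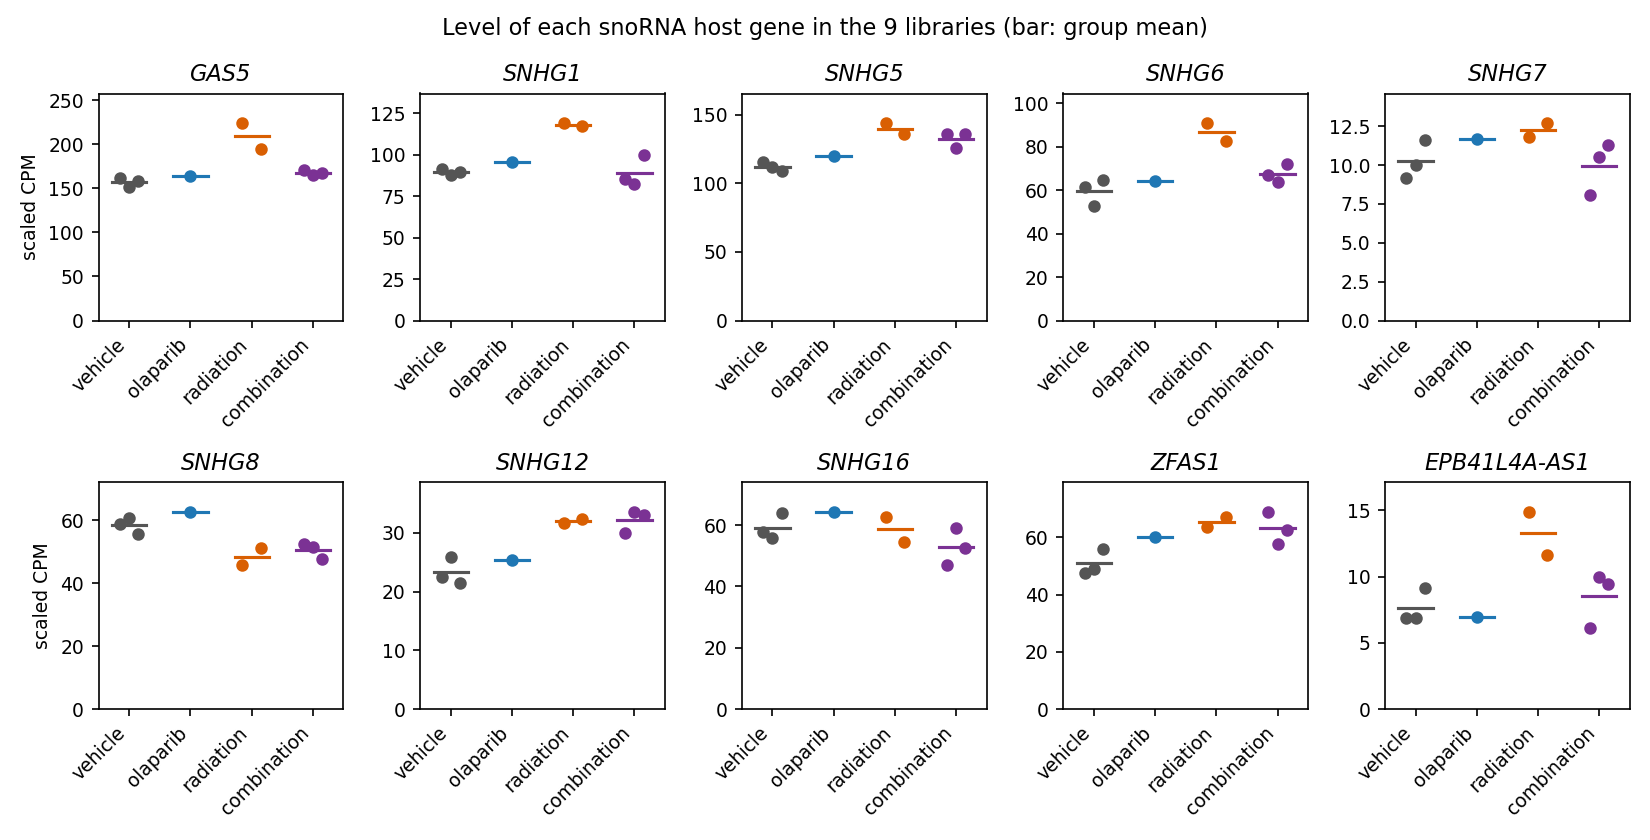
Each panel plots 1 host gene, with the scaled level in CPM on the vertical axis (from 0) and the 4 groups on the horizontal axis; each point is 1 of the 9 libraries and each bar a group mean. GAS5, SNHG1 and SNHG6 peak in the 2 radiation libraries, SNHG12 and SNHG5 are high in radiation and combination alike, and SNHG8 is lowest in the irradiated libraries.

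A further 3 hosts had changes of similar or larger size that missed the threshold. SNHG12, the host of SNORA16A, SNORA44, SNORA61 and SNORD99, was at 22.5, 25.9 and 21.5 CPM in vehicle and 31.6 and 32.4 CPM in radiation (log2 change 0.46 ± 0.128 SE, edgeR adjusted p = 0.0547). ZFAS1, antisense to the start of ZNFX1 and the host of SNORD12, SNORD12B and SNORD12C, was at 47.5, 49.1 and 56.0 CPM in vehicle and 63.6 and 67.1 CPM in radiation (0.36 ± 0.102 SE, edgeR adjusted p = 0.0555). EPB41L4A-AS1, the host of SNORA13, was at 6.86, 6.87 and 9.15 CPM in vehicle and 14.9 and 11.6 CPM in radiation (0.80 ± 0.225 SE, edgeR adjusted p = 0.0575). In all 3 genes the groups did not overlap. SNHG7, the host of SNORA17A and SNORA17B, had a log2 change of 0.25 ± 0.203 (SE), and SNHG16, the host of SNORD1A, SNORD1B and SNORD1C, had -0.01 ± 0.104 (SE). SNHG8, the host of SNORA24, was the exception in direction: it was at 58.9, 60.7 and 55.5 CPM in vehicle and 45.6 and 51.1 CPM in radiation, with a log2 change of -0.27 ± 0.104 (SE; edgeR adjusted p = 0.279).

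The radiation calls leaned on single libraries to different degrees. SNHG6 was called in each of the 9 fits that left out 1 library (adjusted p 0.000142 to 0.0351), whereas without radiation 1 the adjusted p was 0.152 for GAS5, 0.0818 for SNHG1 and 0.328 for SNHG5, and without vehicle 2 it was 0.053 for SNHG1 and 0.129 for SNHG5. SNHG5 was also lost without vehicle 1 (0.0604), vehicle 3 (0.118) or radiation 2 (0.0528). With all 12 libraries edgeR called 0 hosts in any of the 6 comparisons (with an unadjusted p under 0.05 for 5 hosts between the combination and olaparib and for 0 hosts elsewhere), the radiation changes being 0.38 for SNHG6, 0.28 for GAS5, 0.28 for SNHG1 and 0.25 for SNHG5. Hardly any gene was called in that fit. Of 31858 genes tested, 0 passed in radiation against vehicle and 1 in the combination against vehicle. Between the combination and olaparib 3 passed, and 8661 had an unadjusted p under 0.05. With the olfactory receptor sum as a covariate over all 12 libraries, 5 hosts were called, SNHG6, GAS5, SNHG1, SNHG5 and ZFAS1. In that fit 123 of 31858 genes were called higher.

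The combination was compared with vehicle for the response to olaparib and radiation given together. SNHG12, ZFAS1 and SNHG5 rose, by 1.18- to 1.38-fold, and no host fell. The 3 of 10 stand beside 1.53% of the 30967 genes tested and 3.75% of the genes with a mean of at least 5 CPM that were called higher. The median change of the hosts was 0.12, and that of all genes was 0.02. GAS5, SNHG5, SNHG12 and ZFAS1 had all combination libraries above all vehicle libraries, which held for 9.15% of all genes tested. SNHG8 had all combination libraries below all vehicle libraries, for which no share of all genes was taken.

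SNHG12 was at 30, 33.6 and 33.1 CPM in combination 1 to 3, against the vehicle range of 21.5 to 25.9 CPM and 25.4 CPM in olaparib 1. These levels did not overlap with vehicle and lay around the 2 radiation values. The log2 change was 0.47 ± 0.116 (SE; edgeR adjusted p = 0.00576). ZFAS1 was at 69.0, 57.6 and 62.7 CPM in the combination, above its vehicle maximum of 56.0 CPM, with 60.1 CPM in olaparib 1 inside the range of the combination. Its log2 change was 0.31 ± 0.0921 (SE; edgeR adjusted p = 0.0304). SNHG5, whose levels are given above, changed by 0.24 ± 0.0755 (SE; edgeR adjusted p = 0.0493).

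The other 7 hosts did not pass. SNHG6 had a log2 change of 0.18 ± 0.0883 (SE) and GAS5 of 0.09 ± 0.0725 (SE). SNHG1 was at -0.01 ± 0.0806 (SE), with a 95% interval for the fold of 0.892 to 1.11. EPB41L4A-AS1 was at 6.09, 10.0 and 9.41 CPM in the combination, which spans its vehicle values, with a change of 0.16 ± 0.208 (SE). SNHG8 was at 52.3, 51.5 and 47.6 CPM in the combination and changed by -0.21 ± 0.0927 (SE; edgeR adjusted p = 0.239). SNHG16 ranged from 47.1 to 59.2 CPM in the combination and from 55.8 to 63.9 CPM in vehicle (-0.16 ± 0.094 SE), and SNHG7 from 8.09 to 11.3 CPM and from 9.17 to 11.6 CPM (-0.05 ± 0.185 SE).

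Each of the 3 combination calls could be lost with 1 library. SNHG12 was lost without vehicle 3 (adjusted p = 0.0572) or combination 2 (0.052). ZFAS1 was lost without vehicle 1 (0.189), vehicle 2 (0.155), combination 1 (0.253) or combination 3 (0.11). SNHG5 was lost without any 1 of the 6 vehicle and combination libraries (0.0693 to 0.262), so 1 host was left in each of those 6 fits. With the olfactory receptor sum as a covariate over all 12 libraries all 3 were called, beside 457 of 31858 genes called higher. With scaling by library size alone the median of all genes was 0.22 in place of 0.02, which turned 475 genes called higher and 1010 called lower into 2275 and 319; 5 hosts were then called higher, GAS5 (0.29) and SNHG6 (0.38) in addition, beside a host median of 0.33. The olfactory receptor sum spanned 354 to 431.7 CPM over the vehicle libraries and 460.8 to 500.9 CPM over the combination libraries, with 356.3 CPM in radiation 1 and 485.8 CPM in radiation 2, and its part in these changes was not tested beyond that covariate.

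**Figure D2:**
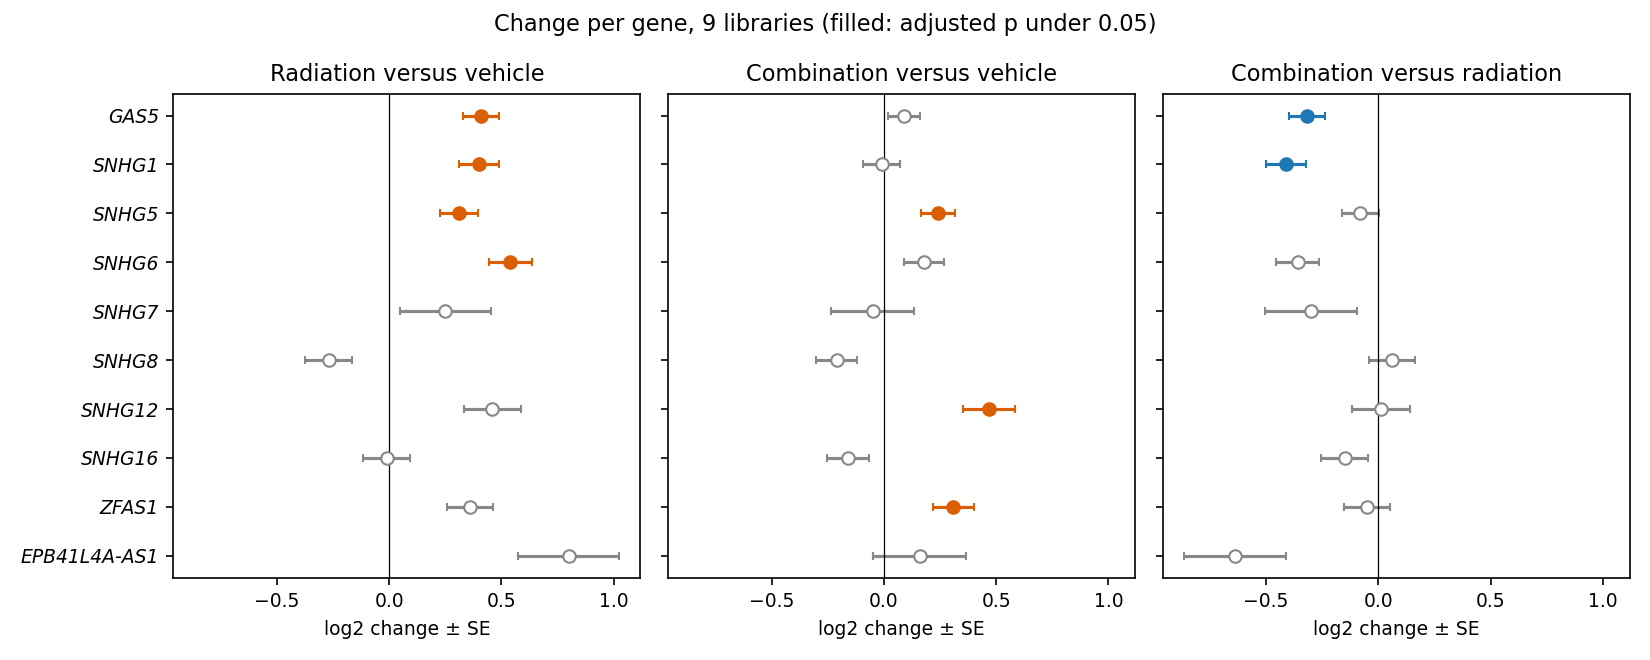
Each point is the log2 change of 1 host gene from the fit of 9 libraries and each bar its standard error; the 3 panels are radiation versus vehicle, combination versus vehicle and combination versus radiation, and filled points have an adjusted p under 0.05. GAS5 and SNHG1 are filled at 0.41 and 0.40 in the first panel, open at 0.09 and -0.01 in the second and filled at -0.32 and -0.41 in the third, while SNHG12 stays near 0.01 in the third.

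The combination was compared with radiation for the effect of olaparib in irradiated cells. SNHG1 and GAS5 were lower with olaparib, by 0.41 ± 0.0891 (SE; edgeR adjusted p = 0.009) and 0.32 ± 0.0803 (SE; adjusted p = 0.0368) on the log2 scale. These are the 2 of 10 hosts called lower, beside 0.426% of all genes tested and 1.14% of genes with a mean of at least 5 CPM. SNHG6 changed by -0.36 ± 0.0974 (SE; adjusted p = 0.058) and EPB41L4A-AS1 by -0.64 ± 0.226 (SE; adjusted p = 0.228). In these 4 and in SNHG7 the combination libraries all lay below both radiation libraries, as for 11.9% of all genes tested. SNHG12 (0.01 ± 0.129 SE), ZFAS1 (-0.05 ± 0.102 SE) and SNHG5 (-0.08 ± 0.084 SE) overlapped between the groups; the 95% interval of the SNHG12 fold was 0.846 to 1.2. The median was -0.22 for the hosts and 0.03 for all genes. Lower calls were not particular to the hosts. Of 77 ribosomal protein mRNAs, 20 were called lower and 0 higher (median -0.28). Of 17 other TOP mRNAs 4 were called lower (median -0.19), and of 18 protein-coding snoRNA hosts 2 were (median -0.17), EEF1B2 being in both lists. Of 15 other noncoding snoRNA hosts tested, 0 were called (median -0.01).

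The calls of SNHG1 and GAS5 rest on few libraries, since radiation has 2. Neither was called without radiation 1 (adjusted p = 0.166 for SNHG1 and 0.682 for GAS5), without combination 1 (0.0616 and 0.0737) or without combination 2 (0.064 and 0.0885), and GAS5 was also lost without combination 3 (0.0938), vehicle 2 (0.0578) or olaparib 1 (0.0583). Neither was called with library size scaling (0.0643 and 0.192), in the fit of these 2 groups alone (0.073 and 0.111) or with all 12 libraries and the covariate (0.147 and 0.284). Radiation versus vehicle and combination versus radiation share the radiation libraries, and both comparisons with vehicle share the vehicle libraries, so the values of a gene in them are not independent.

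Olaparib alone could be compared only through olaparib 1, which the fit assumed to vary like the other groups. No host was called by edgeR against vehicle, DESeq2 and limma-voom called 0 as well, and 0 of 10 had an unadjusted p under 0.05; 0.0678% of all genes tested were called. Log2 changes ran from -0.13 for EPB41L4A-AS1 to 0.24 for ZFAS1, with a median of 0.11 against -0.02 for all genes. Between the combination and olaparib 1, 0 hosts were called by edgeR, DESeq2 or limma-voom, with 3 at an unadjusted p under 0.05 in edgeR (SNHG8, SNHG12 and SNHG16) and 1.95% of all genes called. The interaction term, which asks whether the change with radiation differed with and without olaparib, was below 0 for all 10 hosts, with a median of -0.33 against 0.07 for all genes. In edgeR 0 of 10 passed the adjustment and 3 had an unadjusted p under 0.05, namely SNHG1 (-0.50 ± 0.143 SE, adjusted p = 0.172), SNHG6 (-0.47 ± 0.156 SE, 0.316) and GAS5 (-0.38 ± 0.129 SE, 0.356); 0.2% of all genes tested were called. Limma-voom called none of the hosts either. DESeq2, which called more of all genes for this term than edgeR did, called SNHG1 and GAS5. All 10 terms use the same olaparib 1 library.

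In the 3 libraries set apart, the level of the hosts depended on the scale. As a share of all counts in a library, the 10 hosts summed to 0.0564% in olaparib 2 and 0.0555% in olaparib 3, just below the vehicle range of 0.0576% to 0.0598%, and to 0.0719% in radiation 3, above that range. On the TMM scale of all 12 libraries, all 10 hosts were below the vehicle mean in olaparib 2 (log2 ratio -1.09 to -0.43) and in olaparib 3 (-1.23 to -0.29), and 8 of 10 were below it in radiation 3 (-0.35 to 0.11). GAS5 was at 92.6 CPM in olaparib 2 and 74.3 CPM in olaparib 3, against 179 CPM in olaparib 1 and a vehicle mean of 171.5 CPM. It was at 165 CPM in radiation 3, against 247 and 213 CPM in radiation 1 and 2. SNHG5 was less low, at 88.9 and 97.6 CPM in olaparib 2 and 3 against a vehicle mean of 122.7 CPM. Olaparib 1, in contrast, was above the vehicle mean for 9 of 10 hosts, so the olaparib libraries did not move together. On the same scale the mean log2 level of the ribosomal protein mRNAs relative to vehicle came to -1 for olaparib 2, -1.19 for olaparib 3 and -0.51 for radiation 3, lower than the host means of -0.71, -0.77 and -0.10, and the part of the background in this was not tested.

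**Figure D3:**
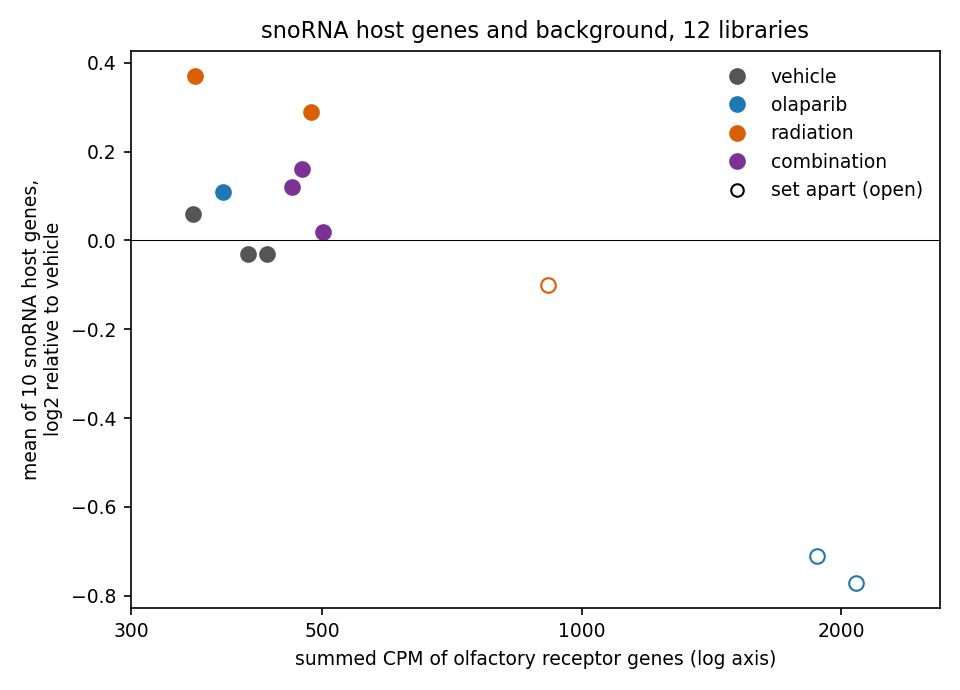
The horizontal axis (log scale) is the summed CPM of the olfactory receptor genes and the vertical axis the mean log2 level of the 10 hosts relative to vehicle, on the scale of all 12 libraries; filled points are the 9 libraries and open points the 3 set apart. The open points lie at 914.5 CPM and -0.10 for radiation 3, 1875 CPM and -0.71 for olaparib 2, and 2079 CPM and -0.77 for olaparib 3.

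Because hosts and ribosomal protein mRNAs can share the TOP start, the 2 groups were set side by side in each library. In the combination 53 of 77 ribosomal protein mRNAs fell against vehicle and none rose (median log2 change -0.36), beside 3.26% of all genes called lower. Examples were RPS27A (-0.66 ± 0.0719 SE, edgeR adjusted p = 6.4e-11) and RPL27 (-0.74 ± 0.0868 SE, 1.05e-09), components of the small and large subunit. In radiation 4 of 77 fell and none rose (median -0.10, beside 0.678% of all genes called lower), with RPL38 among them at -0.45 ± 0.0829 (SE; edgeR adjusted p = 0.000407). With all 12 libraries 0 of 77 were called in either comparison (medians -0.36 and -0.22), and with the olfactory receptor sum as a covariate 18 fell in the combination (median -0.23) while 1 rose and 1 fell in radiation (median -0.01). Of all 31858 genes tested with 12 libraries, 1 was called in the combination and 0 in radiation. With the covariate 374 were called lower in the combination. With library size scaling the combination count was 23 of 77 and the radiation median 0.01, with 3 called higher and 2 lower. Of all 30967 genes, that scaling called 319 lower in the combination, and 560 higher and 125 lower in radiation.

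The mean log2 level of the 10 hosts relative to vehicle was 0.10 in olaparib 1, 0.35 and 0.29 in the radiation libraries, and 0.02, 0.12 and 0.16 in the combination libraries. For the 77 ribosomal protein mRNAs the means were -0.03 and -0.19 in radiation, -0.36, -0.29 and -0.43 in the combination and 0.11 in olaparib 1. The difference between the 2 means does not depend on the scaling of a library, apart from the pseudocount of 0.5 CPM. It was -0.03 to 0.04 in the vehicle libraries and 0 in olaparib 1. With radiation alone it reached 0.38 and 0.48, and with the combination 0.38, 0.41 and 0.59. The irradiated libraries were therefore separated from the unirradiated ones by this difference, whereas the host mean alone was higher in radiation than in the combination. Among the libraries set apart, olaparib 2 had a difference of 0.29, olaparib 3 had 0.43 and radiation 3 had 0.41, so 2 libraries that were not irradiated had a difference of the same size beside their high background.

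**Figure D4:**
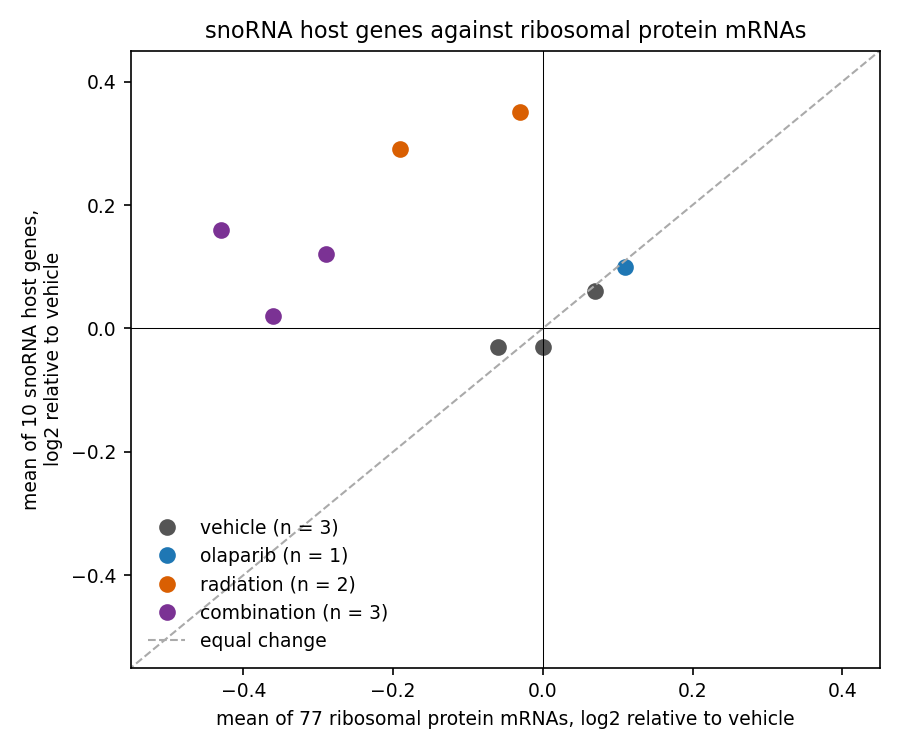
Each point is 1 of the 9 libraries; the horizontal axis is the mean log2 level of 77 ribosomal protein mRNAs and the vertical axis that of the 10 host genes, both relative to the vehicle mean, and the dashed line marks equal change. Vehicle and olaparib 1 lie along the line, and the 5 irradiated libraries lie above it by 0.38 to 0.59.

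Other gene lists placed beside the hosts gave the following counts. Of 17 other TOP mRNAs, 8 fell in the combination and none rose (median -0.22), among them EEF1B2 and HNRNPA1, while 0 were called in radiation (smallest edgeR adjusted p = 0.128). Of 16 other noncoding snoRNA hosts, 15 were tested; SNHG32 rose in radiation (0.53 ± 0.121 SE, adjusted p = 0.00651) and in the combination (0.62 ± 0.11 SE, adjusted p = 4.32e-05), and SNHG3 fell in the combination (-0.50 ± 0.0953 SE, adjusted p = 0.000136). Their median was 0.18 in radiation and 0.09 in the combination. Of 18 protein-coding snoRNA hosts, 1 rose (WDR43, a factor of ribosome assembly) and 6 fell in the combination. In radiation 1 rose (WDR43) and 1 fell (HSPA8, a chaperone). This list shares members with the other TOP mRNAs, among them EEF1B2 and EEF2, which fell in the combination, so the counts are not independent. Of all genes tested, 1.53% were called higher and 3.26% lower in the combination, and 0.42% and 0.678% in radiation.

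Among 10 factors of nonsense-mediated decay, the pathway that removes spliced host RNAs, SMG1 (0.33 ± 0.0665 SE, adjusted p = 0.000393) and UPF2 (0.27 ± 0.071 SE, adjusted p = 0.00849) rose in the combination, UPF2 alone was called in radiation, and none fell. Among 8 proteins of the snoRNA particles, NOP58 rose by 0.28 ± 0.0745 (SE; adjusted p = 0.00993) and the methyltransferase FBL fell by 0.49 ± 0.128 (SE; adjusted p = 0.0102) in the combination, and 0 were called in radiation (smallest adjusted p = 0.0513). Among 14 genes of TOP and mTOR regulation, LARP1 fell by 0.22 ± 0.0664 (SE; adjusted p = 0.033) and EIF4E, the cap-binding protein, fell by 0.44 ± 0.0986 (SE; adjusted p = 0.00163) in the combination, and 1 fell in radiation, LARP1. All p-values in these lists are from edgeR over all genes tested.

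The hosts did not all vary together over the 9 libraries. The Pearson correlation between the log2 level of 1 host and the mean of the other 9 was 0.906 for SNHG6, 0.868 for GAS5, 0.826 for SNHG1 and 0.818 for EPB41L4A-AS1. It was 0.685 for SNHG5, 0.623 for SNHG7, 0.546 for ZFAS1, 0.484 for SNHG12, 0.107 for SNHG16 and -0.778 for SNHG8. These values describe 9 libraries of 4 groups that share scaling, and the group differences enter them. The 5 genes whose log2 level was most like the mean of the hosts, among 8342 genes with a mean of at least 10 CPM, were NGLY1 (r = 0.953), C1orf109 (0.941), ZNF473 (0.928), ZNF449 (0.927) and COQ10B (0.922). NGLY1, a cytosolic enzyme that strips sugars from misfolded glycoproteins, averaged 47.2 CPM over the vehicle libraries, 67.0 CPM over the radiation libraries and 56.6 CPM over the combination libraries, with 54.4 CPM in olaparib 1.

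The snoRNAs themselves took few counts. GENCODE 29 places 26 snoRNA genes of 69 to 137 bases inside 9 of the hosts, all of them listed in the table, and 12 were at 0 in all 12 libraries. Over the 9 libraries they took 986 counts, against 169173 counts for the 10 hosts. Only 7 reached 10 counts in any library, and the highest were SNORA61 in SNHG12 (17 to 80 counts per library) and SNORD99 in SNHG12 (6 to 42). All 7 snoRNAs inside SNHG1 and the single one annotated inside SNHG5 were at 0 in the 9 libraries. Most of the 26 snoRNA genes, with all 7 inside SNHG1, overlap an exon of at least 1 annotated transcript of their host. Reads from snoRNA or unspliced sequence could therefore be assigned to the host. The host counts are counts of all RNA assigned to each gene and were not split into spliced and other RNA. The small RNAs were not compared between groups.

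Several hosts share exonic sequence with a gene on the opposite strand. The overlap in GENCODE 29 was 1659 bases between EPB41L4A-AS1 and EPB41L4A, 1639 bases between SNHG16 and AC015802.6, 1094 bases between SNHG7 and FAM69B, 365 bases between SNHG6 and MCMDC2, and 249 bases between ZFAS1 and ZNFX1. It was 42 bases between GAS5 and GAS5-AS1 and 8 bases between SNHG12 and TRNAU1AP. The library kit keeps the strand, but the sources used here do not say whether the counting used it, so the levels of the first 5 hosts are less certain than those of GAS5, SNHG1, SNHG5, SNHG8 and SNHG12.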

How the data were processed

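The authors deposited estimated counts per gene (expected counts) for 12 libraries of a stranded total RNA kit; kallisto 0.46.1 and DESeq2 are named, per the submitters' processing notes. The sources used here give no transcriptome release, genome build or strand setting. Counts of 44 pseudoautosomal copies on Y were added to their X counterparts, and the estimates were rounded. All 4 groups of the 9 libraries were fitted together in R 4.3.3 with edgeR 4.0.16 (default count filter, TMM, robust quasi-likelihood tests, Benjamini-Hochberg over 30967 genes, threshold 0.05). CPM are counts per 1e+06 on the TMM scale, except that the olfactory receptor sums are per 1e+06 of the total counts of a library. The SE is the log2 change over the square root of F. DESeq2 1.42.0 and limma 3.58.1 (voom) were alternatives, with other scalings, filters, sets of libraries, and each library left out. On simulated counts for the combination against vehicle, 22% of 50 genes changed 1.3-fold, 52% changed 1.5-fold and 90% changed 2-fold were called. The rule for named genes was all 10 hosts, up to 4 called rises and 4 falls per list with the smallest adjusted p, of which the text gives a part, and the 5 most similar genes. The hosts and lists were chosen with earlier results of these data known.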

Additional observations from a re-analysis of the deposited data

How the results depend on the processing

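No pairing by replicate number was seen, but the check was weak. Deviations from the group means correlated between -0.0463 and 0.00584 for the same number and between -0.0295 and 0.0463 for different numbers. The deviations of the 2 radiation libraries mirror each other, so these values are not independent. Olaparib 1 could not enter the check. With the number as a replicate block, hosts called were 2 for the combination against vehicle, 5 for radiation against vehicle and 2 for the combination against radiation, EPB41L4A-AS1 under olaparib was 0.04 and SNHG16 under radiation 0.02. Without the block these 3 counts were 3, 4 and 2. They became 0, 0 and 0 with all 12 libraries, where 1, 0 and 0 of all 31858 genes tested were called. With the covariate the third was 0, with library size scaling they were 5, 7 and 0, with limma-voom the first was 1, with DESeq2 size factors in edgeR or with no count filter the second was 7, and in fits of the compared groups alone the third was 0. DESeq2 called 2 interaction terms. Leaving out 1 library gave 1 to 3, 1 to 5 and 0 to 3. The number of all genes called moved as well. In radiation against vehicle 130 were called higher in the main fit and 560 with library size scaling, where their median was 0.08 in place of -0.03. DESeq2 size factors gave 164 and no count filter gave 162. In the combination against vehicle limma-voom called 318 higher in place of 475. In the combination against radiation 132 were called lower in the main fit, 58 with library size scaling and 22 with the covariate. The share of promoters with a TOP-like start was 19.96% where a C and 6 pyrimidines within 20 bases of the start were asked for.

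Changes of sign were found only among hosts that edgeR did not call in that comparison. Combination versus vehicle: SNHG1 was 0.00 with DESeq2, its size factors or the compared groups alone, 0.12 with the covariate and 0.19 with library size; SNHG7 was 0.06 and 0.16 with these last settings, and SNHG16 0.04 with library size. Without 1 library SNHG1 ran from -0.11 to 0.03 and SNHG7 from -0.15 to 0.08. Radiation versus vehicle: SNHG16 was 0.01 with DESeq2 or its size factors, 0.10 with the covariate or library size, and -0.11 to 0.10 without 1 library. Combination versus radiation: ZFAS1 was 0.02 with 12 libraries and 0.04 with library size, SNHG5 was 0.01 with library size, SNHG12 was -0.01 without mitochondrial and small structural RNA genes and -0.04 to 0.06 without 1 library, and SNHG8 -0.02 to 0.12. Olaparib versus vehicle with 12 libraries: -0.57 for GAS5, -0.58 for SNHG1, -0.21 for SNHG5, -0.37 for SNHG6, -0.33 for SNHG7, -0.53 for SNHG8, -0.48 for SNHG12, -0.34 for SNHG16 and -0.30 for ZFAS1; with the covariate SNHG8 was -0.05 and EPB41L4A-AS1 0.15, and without 1 library EPB41L4A-AS1 ran from -0.20 to 0.02. The interaction with 12 libraries was 0.38 for GAS5, 0.29 for SNHG1 and 0.16 for SNHG6. The causes of these shifts were not tested. SNHG7 and EPB41L4A-AS1 had the lowest levels of the hosts, at 6 to 15 CPM and 125 to 448 counts per library over the 9 libraries. Their standard errors were 0.185 to 0.225 in the comparisons with vehicle that held more than 1 treated library. The part of depth in these errors was not tested.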
